A study of Bos taurus with 90 samples.

Results

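The miRNAs of the mammary gland were compared with those of the epithelium of the small intestine in lactating dairy cows. The comparison set the 18 samples labelled mammary gland against the 36 samples labelled duodenum epithelium (18) or jejunum epithelium (18), which together were 54 of the 90 samples of the 5 tissues. Samples were chosen by their tissue label, and no measured value entered the choice. The samples came from 18 mid-lactation Chinese Holstein cows on 3 diets that differed in their forage (alfalfa hay, corn stover or rice straw), with 6 cows per diet, and every cow gave all tissues. Samples of different tissues were therefore not independent of each other. Tissue was frozen after slaughter, and each sample was a piece of tissue with all of its cell types and not sorted cells, so that fewer cells of a type and less miRNA per cell cannot be told apart. Of the 358 miRNAs listed in at least 1 of the 3 tissues, 310 were listed in all 3 and were tested. The other 48 are given separately.

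A miRNA is a short RNA that guides the silencing complex to matching sites in messenger RNAs and lowers the protein made from them. Related miRNAs share a seed, the bases that pair with the target, and neighbours in the genome are often cut from a common transcript. The mammary gland in lactation is a secretory epithelium set in connective tissue, fat and vessels. The small intestinal epithelium is an absorptive lining that renews itself from crypts and contains hormone-secreting cells and many immune cells. In mammals, bta-miR-192, bta-miR-194 and bta-miR-215 are known as miRNAs of absorptive gut and liver epithelium, and the miR-200 family as miRNAs of epithelial cells in general.

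The level of a miRNA was given as CPM, its count per 1000000 of the reads mapped to all annotated miRNAs of the sample. A total of 937556 to 14328839 reads was mapped per sample in mammary gland (median 5570152.5), 4925942 to 15621501 in duodenum and 3987988 to 10383400 in jejunum. The 4 shallowest mammary gland libraries were rice straw 1, rice straw 4, rice straw 5 and alfalfa hay 1, and in the shallowest of them 3 reads were worth 3.20 CPM. Their median correlation with the other libraries of the tissue was 0.929 to 0.954, below that of the other 14 mammary gland libraries (0.964 to 0.988). Low correlation was not confined to shallow libraries. Rice straw 2 (0.964, 8210851 reads) and rice straw 3 (0.965, 8364602 reads) were the lowest of the 14, and corn stover 5 came next with 0.982. Mammary gland rice straw 3 stood apart in bta-miR-1, a miRNA of heart and skeletal muscle, with 430 CPM. The SD of log2(CPM + 1) between samples had a median over the 310 miRNAs of 0.80 in mammary gland, against 0.31 in duodenum and 0.36 in jejunum. Without the 4 shallow libraries it was 0.46 in mammary gland. Values without 5 libraries, the 4 shallow ones and rice straw 3, are given where they changed the call of a named miRNA. Rice straw 2 was not among the 5. Differences are on the log2(CPM + 1) scale, mammary gland minus the mean of duodenum and jejunum, with adjusted p from limma and the Benjamini-Hochberg method.

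Most miRNAs differed between the tissues. Of the 310 tested, 246 (79.4%) passed an adjusted p of 0.05, and 121 (39%) were higher and 125 (40.3%) were lower in mammary gland. The counts for families and lists below are to be read against these shares. A difference of at least 1 on the log2 scale was found for 57 (18.4%) in the higher and 75 (24.2%) in the lower direction. In 10 miRNAs (3.23%) every mammary gland sample lay above all 36 intestinal samples, and in 28 (9.03%) every one lay below. The median log2 difference of all 310 was -0.02. CPM are shares of a whole, and bta-miR-192, bta-miR-194 and bta-miR-215 took a large part of the intestinal reads. With these 3 left out of the total, the median moved by -0.40, and 83 were higher and 172 lower, so that the higher ones were 32.5% of the calls instead of 49.2%. With a separate variance weight for each tissue, 117 were higher and 117 lower.

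**Figure D1:**
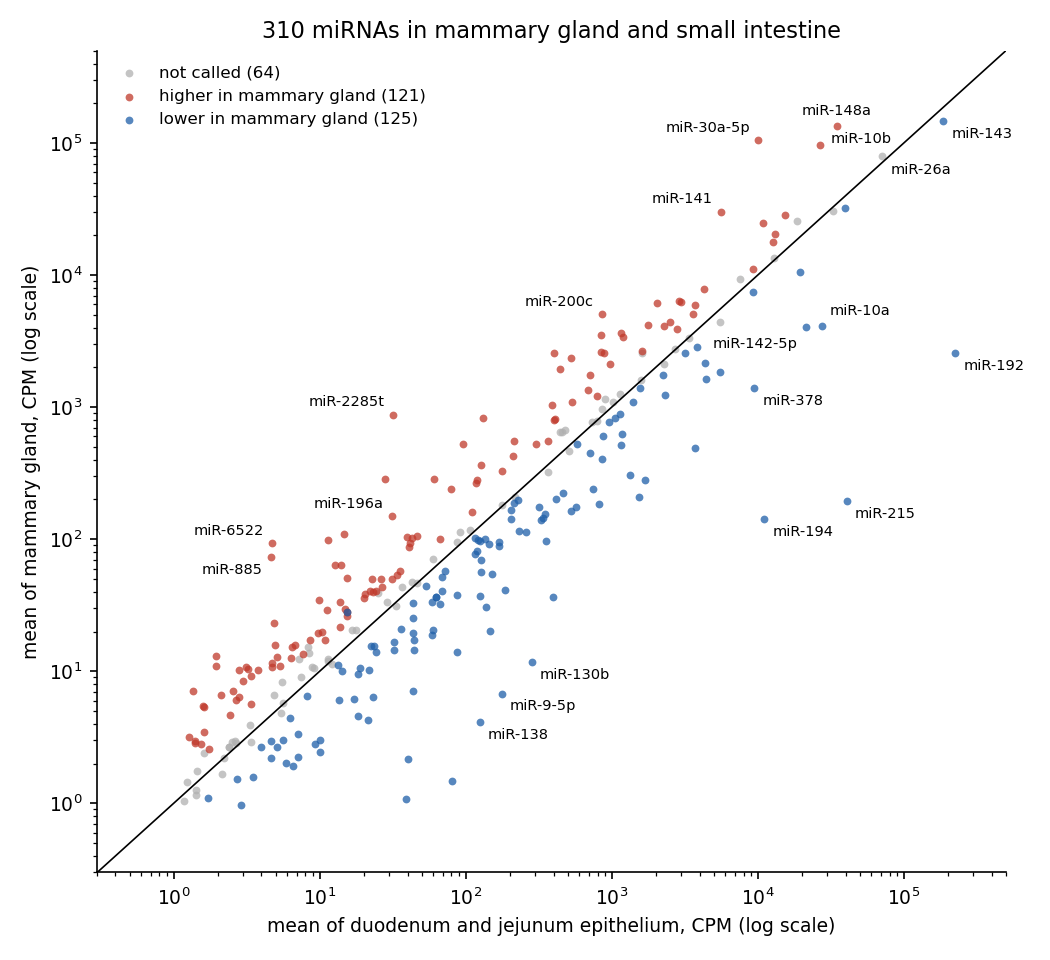
Mean CPM of the 310 miRNAs in mammary gland (vertical axis) and in small intestine (mean of the duodenum and jejunum means, horizontal axis), both on log scales, with the line of equal level and with points coloured by the call of limma. The points of bta-miR-192, bta-miR-194 and bta-miR-215 lie farthest below the line among the abundant miRNAs, and bta-miR-2285t and bta-miR-30a-5p lie far above it.

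The 2 tissues were dominated by different miRNAs. In mammary gland, bta-miR-148a, bta-miR-30a-5p and bta-miR-10b together made up 33.6% ± 8.2 of mapped reads (SD, n = 18), against 6.45% ± 0.76 in duodenum and 7.91% ± 1.53 in jejunum. In the intestine bta-miR-192, bta-miR-194 and bta-miR-215 made up 32.2% ± 5.1 of reads in duodenum and 23.2% ± 4.7 in jejunum, but 0.289% ± 0.043 in mammary gland. The 10 most abundant miRNAs of each side shared 6 names, bta-miR-143, bta-miR-148a, bta-miR-10b, bta-miR-26a, bta-miR-21-5p and bta-miR-27b. The 10 of mammary gland took 71.0% of its reads, and the 10 of the small intestine took 70.7% in duodenum and 70.3% in jejunum.

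Among the abundant mammary gland miRNAs, bta-miR-148a is known for its high level in milk and for targeting a DNA methyltransferase. It ranged from 86639 to 216977 CPM in mammary gland (median 124649), from 25217 to 48811 in duodenum (median 39657) and from 18173 to 48041 in jejunum (median 31829). The lowest mammary gland sample was thus above the highest intestinal one. The difference was 1.95 ± 0.10 on the log2 scale (SE, adjusted p = 1.85e-25). Its seed relatives differed less, since bta-miR-152 was 0.66 higher, while bta-miR-148b had 792 ± 346 CPM in mammary gland and 796 CPM in the intestine and did not pass (95% interval of the log2 difference -0.32 to 0.13). With bta-miR-192, bta-miR-194 and bta-miR-215 left out of the total, bta-miR-152 was at 0.19 and did not pass, and bta-miR-148b was at -0.56 and passed.

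The miR-30 family, of which several members are known from epithelial and fat cells, had 4 higher and 1 lower among its 7 members, with a median of 0.38. Among all 310 the shares were 39% higher and 40.3% lower. Without the 5 libraries 6 were higher and none lower, and with the 3 intestinal miRNAs left out of the total 3 were higher and 3 lower (median -0.09). In mammary gland bta-miR-30a-5p had 64439 to 178128 CPM (median 97664), in duodenum 6783 to 11071 (median 9580) and in jejunum 5750 to 16473 (median 11254). Its mean was 10.4 times the intestinal mean, and the groups did not overlap. Its log2 difference of 3.37 ± 0.09 (adjusted p = 7.88e-40) lay between 3.23 and 3.53 in each of the 3 diets. The level of bta-miR-30f was 825 ± 431 CPM in mammary gland, against 118 ± 33 in duodenum and 144 ± 22 in jejunum. That was a difference of 2.42, and 17 of 18 mammary gland samples lay above the intestinal mean. The other members moved less. bta-miR-30d was 0.21 higher (0.41 without the 5 libraries), did not pass with tissue weights or with the replicate block by cow (adjusted p = 0.0540) or against either intestinal tissue alone, and was at -0.26 with the 3 intestinal miRNAs left out of the total. bta-miR-30e-5p was 0.46 lower, and without the 5 libraries it was at -0.08 and did not pass.

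Of the miRNAs located in the HOX gene clusters, which mark position along the body axis, 2 were higher and 1 was lower in mammary gland. The level of bta-miR-10b was 49952 to 235766 CPM in mammary gland (median 74430), 9477 to 25804 in duodenum (median 15805) and 16480 to 75615 in jejunum (median 26951). Against duodenum every mammary gland sample was higher, while the ranges overlapped in jejunum. Its difference was 1.94 ± 0.17 (adjusted p = 1.39e-15). Its near-identical relative bta-miR-10a went the other way, with 2466 to 6892 CPM in mammary gland (median 4154), 3468 to 26674 in duodenum (median 11782) and 26636 to 95217 in jejunum (median 30864). That was a fall of 2.36 on the log2 scale (adjusted p = 3.26e-17), with every jejunum sample above all mammary gland samples. Reads that fit both could have been counted for either, since the authors' alignment allowed 2 mismatches. The last, bta-miR-196a, had 37.3 to 282 CPM in mammary gland (median 144), 0.384 to 12.5 in duodenum (median 2.09) and 4.21 to 324 in jejunum (median 14.97), and was 3.78 ± 0.34 higher (adjusted p = 2.70e-15). Every duodenum sample lay below all mammary gland samples. The jejunum range covered that of mammary gland only through corn stover 1, 2 and 6 (197 to 324 CPM). The other jejunum samples had 4.21 to 27.7 CPM and lay below all mammary gland samples. Its close relative bta-miR-196b was listed in mammary gland and in neither intestinal tissue.

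The miRNAs of absorptive epithelium, bta-miR-192, bta-miR-194 and bta-miR-215, were all lower in mammary gland, with no overlap of the groups for any of the 3. For bta-miR-192 the 18 mammary gland samples had 1839 to 3210 CPM (median 2503), duodenum 193129 to 327244 (median 259385) and jejunum 119672 to 249455 (median 192260). The intestinal mean was 88.1 times that of mammary gland, a log2 difference of -6.44 ± 0.08 (adjusted p = 2.02e-60). For bta-miR-215, which shares its seed with bta-miR-192, the values were 22.9 to 529 CPM in mammary gland (median 135), 21032 to 91487 in duodenum (median 55642) and 9656 to 66978 in jejunum (median 25000). This was the largest difference of the 310, at -7.88 ± 0.24, and the intestinal mean was 210 times that of mammary gland. bta-miR-194 had 43.9 to 234 CPM in mammary gland and 6786 to 19586 in the intestine, and was 6.41 ± 0.15 lower. In mammary gland bta-miR-192 still took 0.255% of reads. Reads of bta-miR-192 and bta-miR-215 could have been shared between them.

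**Figure D2:**
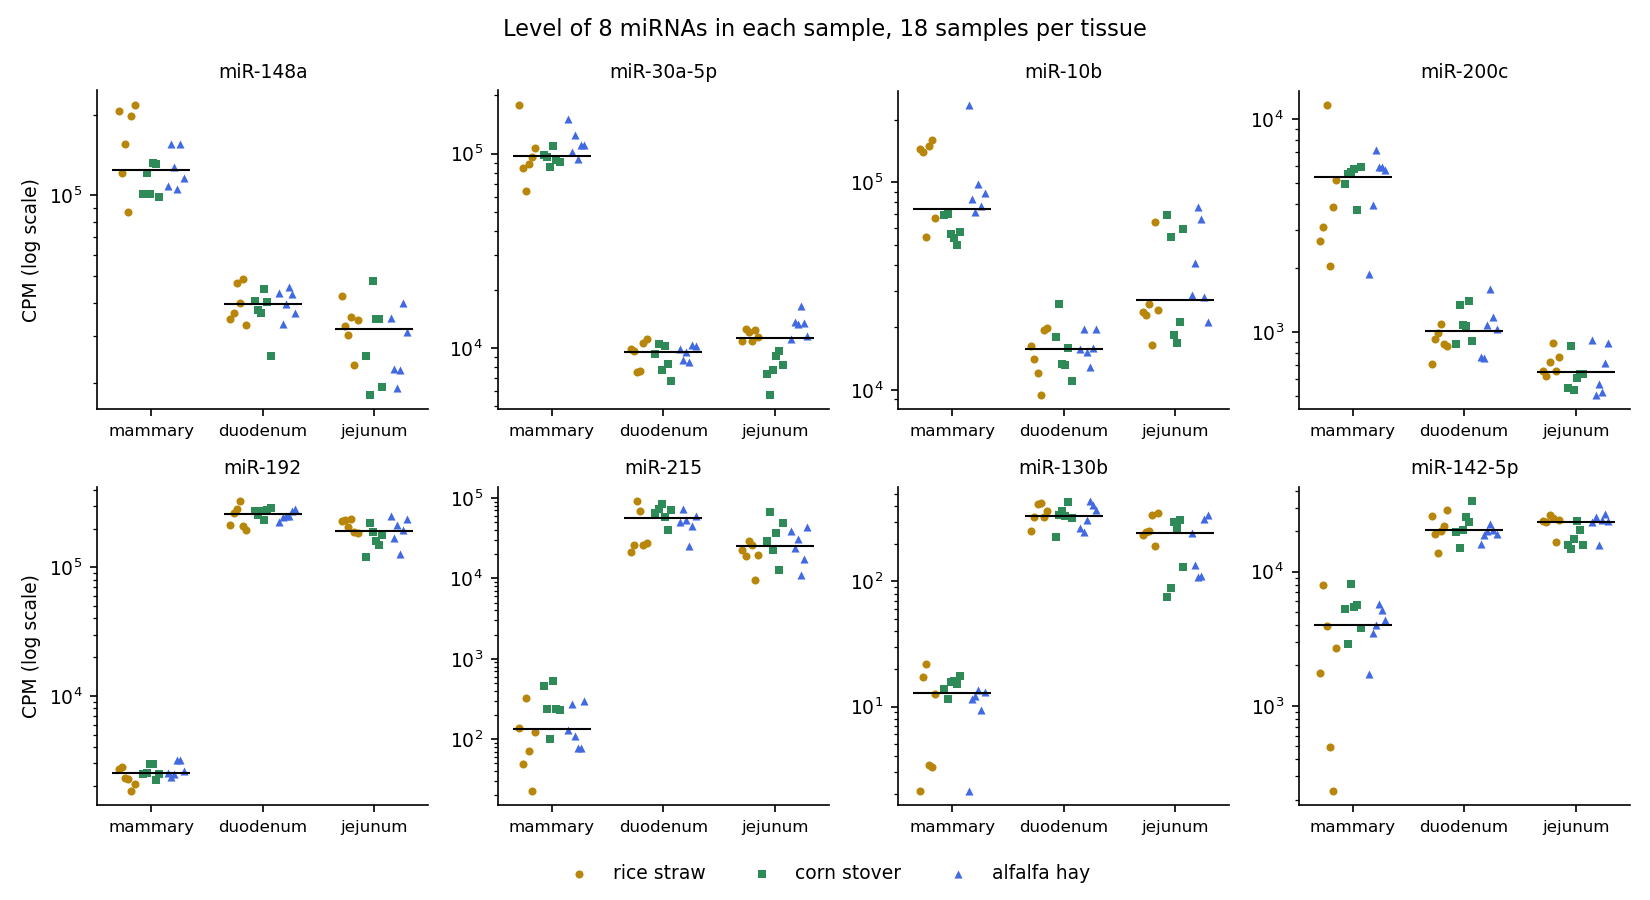
CPM (log scale) of 8 miRNAs in each of the 18 mammary gland, 18 duodenum and 18 jejunum samples, with point shape and colour by diet and a bar at the tissue median. The mammary gland samples lie above all intestinal samples for bta-miR-148a, bta-miR-30a-5p and bta-miR-200c and below all of them for bta-miR-192, bta-miR-215, bta-miR-130b and bta-miR-142-5p, while bta-miR-10b overlaps in jejunum.

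The largest rise among the 310 was in a miRNA annotated in cattle. bta-miR-2285t belongs to a large family whose functions are little known and whose members could have shared reads. It had 95.99 to 2842 CPM in mammary gland (median 810), 16.1 to 49.8 in duodenum (median 32.6) and 16.03 to 49.9 in jejunum (median 28.6), a difference of 4.47 ± 0.21 (adjusted p = 2.30e-28). The mammary gland samples differed among themselves by far more than the intestinal ones, yet none of them reached the intestinal range. It was also low in rumen (29.2 CPM) and liver (73.5 CPM). At a mean under 100 CPM, bta-miR-6522 (62.5 to 153 CPM against 2.00 to 8.66 in the intestine) and bta-miR-885 (14.9 to 157 against 1.03 to 9.55) also did not overlap, with differences of 4.07 and 3.58. bta-miR-885 is known from hepatocytes, and its liver mean was 93.2 CPM. The hepatocyte miRNA bta-miR-122 was listed in mammary gland, with more than 1 CPM in 9 of 18 samples and a highest value of 48.5, and in neither intestinal tissue, against 11021 CPM in liver.

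The epithelial miR-200 family was higher in mammary gland in 4 of its 5 members. Its summed level was 10598 to 67448 CPM in mammary gland (median 42444), 7520 to 16058 in duodenum and 4714 to 10702 in jejunum. Most of it was bta-miR-141, with 3593 to 54985 CPM in mammary gland (median 29566), 3577 to 10176 in duodenum (median 6459) and 2566 to 7343 in jejunum (median 4565). In 17 of 18 mammary gland samples it lay above the intestinal mean, and the difference was 2.27 ± 0.18 (adjusted p = 2.66e-17). Its cluster partner bta-miR-200c had 1873 to 11616 CPM against 509 to 1601 in the intestine, with no overlap, and was 2.48 ± 0.13 higher. In the other cluster of the family, bta-miR-200a was 0.99 higher, bta-miR-200b was 0.86 higher and bta-miR-429 was 0.66 lower (adjusted p = 0.00405). This call was lost without the 5 libraries (-0.10).

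The miR-183 cluster, whose 3 miRNAs are made from a common transcript and known from sensory and secretory epithelia, was higher in all 3. bta-miR-182 had 2341 to 8777 CPM in mammary gland (median 3027), 510 to 1348 in duodenum (median 854) and 448 to 1216 in jejunum (median 763). It was 2.04 ± 0.12 higher (adjusted p = 2.53e-23), with no overlap. For bta-miR-96 the difference was 2.89 and for bta-miR-183 it was 1.78. In bta-miR-183 the mammary gland samples spread from 54.9 to 2391 CPM and 1 of them lay below the intestinal mean.

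The let-7, miR-99/100 and miR-125 families, which are often made from shared transcripts and are known to accumulate as cells stop dividing, were mostly higher. In the miR-99/100 family all 4 members rose. bta-miR-99a-5p had 620 to 7912 CPM in mammary gland (median 1927), 311 to 702 in duodenum (median 422) and 88.5 to 715 in jejunum (median 383). The lowest mammary gland value fell within the intestinal range, and the difference was 2.49 ± 0.20 (adjusted p = 1.64e-17). Its other arm, bta-miR-99a-3p, was 2.75 higher without overlap, and bta-miR-100 was 1.17 higher. In the let-7 family 7 of 10 members were higher and 1 was lower, with a median of 0.43, where 39% of all 310 were higher. bta-let-7c, which neighbours miR-99a in mammals, led them with 525 to 4964 CPM (median 2344) against 282 to 747 in the intestine, a difference of 2.02 ± 0.15. The most abundant members, bta-let-7a-5p (24676 ± 10472 CPM against 10931 in the intestine) and bta-let-7f (17673 ± 6716 against 12635), were 1.02 and 0.37 higher. With the 3 intestinal miRNAs left out of the total, bta-let-7f was at -0.10 and did not pass, and the family had 3 higher and 2 lower members. Both members of the miR-125 family were higher, bta-miR-125b by 1.27 and bta-miR-125a by 0.67, and bta-miR-125a was at 0.20 and did not pass under that scaling. Without the 5 libraries bta-miR-125a was 1.14 higher, and 9 let-7 members were higher and none was lower.

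All 8 tested members of a cluster that lies on the X chromosome in mammals, which holds bta-miR-362, bta-miR-500, bta-miR-502a, bta-miR-532, bta-miR-660 and bta-miR-188, were higher, by 0.53 to 2.10. bta-miR-660 had 1454 to 8596 CPM in mammary gland (median 3399), 956 to 1475 in duodenum and 841 to 1410 in jejunum, and was 1.57 ± 0.11 higher (adjusted p = 2.32e-19). Its lowest mammary gland value lay within the intestinal range. bta-miR-532 (411 to 717 CPM against 148.5 to 386) and bta-miR-502a (3.93 to 31.2 against 0.891 to 3.10) did not overlap, and were 1.38 and 2.10 higher. Of the imprinted DLK1-DIO3 cluster, a large group of miRNAs expressed from the maternal chromosome and known from muscle, brain and connective tissue cells, 28 members were tested. Of these, 27 were higher, 1 did not pass and none was lower, with a median of 0.89. Under limma with tissue weights 25 were higher, and with the 3 intestinal miRNAs left out of the total 19 were higher and 1 was lower (median 0.49). bta-miR-127 had 3095 to 15629 CPM in mammary gland (median 5589), 897 to 3479 in duodenum and 841 to 3411 in jejunum, a difference of 1.53 ± 0.15 (adjusted p = 8.85e-14). bta-miR-411a was 1.62 higher, with all 18 mammary gland samples above the intestinal mean. bta-miR-379 was 1.37 higher, and its 626 CPM in mammary gland rice straw 3, the library high in bta-miR-1, was far above the median of 34.4.

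Several of the other miRNAs that rose are known from other settings. bta-miR-193a-3p, described as a brake on growth in many cells, had 36.3 to 832 CPM in mammary gland (median 263) and 16.4 to 45.1 in the intestine, and was 3.07 ± 0.19 higher (adjusted p = 5.01e-22). bta-miR-34c, induced by the p53 protein, had 63.3 ± 42.0 CPM against 12.7 in the intestine and was 2.12 higher, and its cluster partner bta-miR-34b was 1.35 higher. Of the red blood cell list, bta-miR-486 and bta-miR-451 were higher. bta-miR-486 ranged from 714 to 4051 CPM in mammary gland (median 1513), from 208 to 513 in duodenum and from 221.9 to 1428 in jejunum, and was 2.10 ± 0.17 higher. bta-miR-451, made in maturing red cells, was 1.22 higher, and bta-miR-144 was at 0.51 and did not pass (adjusted p = 0.0528). It passed without the 5 libraries (1.11, adjusted p = 1.34e-06), under upper-quartile scaling (0.66), with edgeR (0.57), with DESeq2 (0.59) and with the replicate block by cow (adjusted p = 0.01445). The summed level of the 3 was 1070 to 4241 CPM in mammary gland, 315 to 633 in duodenum and 280 to 2030 in jejunum. The arms of the endothelial miR-126, bta-miR-126-5p and bta-miR-126-3p, were 0.83 and 0.63 higher (the latter at 1.10 without the 5 libraries and at 0.16, not passing, with the 3 intestinal miRNAs left out of the total), and their sum took 3.63% ± 1.10 of reads in mammary gland against 1.94% ± 0.41 and 2.00% ± 0.62. The part of blood and vessels in the other differences was not tested.

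miRNAs of immune cells were mostly lower in mammary gland. Of 8 members 6 were lower, bta-miR-363 was 0.57 higher and bta-miR-146b did not pass, with a median of -2.77. The share of lower miRNAs among all 310 was 40.3%. Without the 5 libraries bta-miR-146b was at -0.71 and passed and bta-miR-363 was at 0.93, and with the 3 intestinal miRNAs left out of the total bta-miR-363 was at 0.12 and did not pass. The sum of the list was 1263 to 11213 CPM in mammary gland (median 5985), 18047 to 47572 in duodenum and 19903 to 37790 in jejunum, so no mammary gland sample reached the intestinal range. bta-miR-142-5p, made in all blood cell lineages, carried most of that sum. It had 234 to 8086 CPM in mammary gland (median 3985), 13726 to 33547 in duodenum (median 20244) and 14788 to 26781 in jejunum (median 23594), a difference of -2.75 ± 0.22 (adjusted p = 2.66e-17) without overlap. The 4 lowest mammary gland values were those of the 4 shallow libraries, and without the 5 doubtful libraries the difference was -2.15. bta-miR-142-3p, the other arm, was 3.17 lower and bta-miR-146a, a feedback inhibitor of innate immune signalling, was 3.03 lower, both without overlap. bta-miR-150 of mature lymphocytes (280 ± 176 CPM against 1688), bta-miR-223 of neutrophils and other myeloid cells (36.4 ± 34.5 against 399) and bta-miR-155 of activated lymphocytes (175 ± 75 against 574) were 2.79, 3.58 and 1.75 lower. bta-miR-223 had 244 ± 110 CPM in duodenum and 554 ± 267 in jejunum. bta-miR-342, also known from lymphocytes but not on the list, was 2.21 lower without overlap. The part of immune cell numbers in the other differences was not tested.

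Of the list of enteroendocrine and neural miRNAs, 5 of 13 members were tested and 4 were lower, and without the 5 libraries 3 were lower and 1 was higher. bta-miR-375, a miRNA of hormone-secreting cells, had 952 to 3029 CPM in mammary gland (median 1877), 4498 to 10852 in duodenum (median 6844) and 2669 to 6948 in jejunum (median 3927), a difference of -1.58 ± 0.13 (adjusted p = 5.47e-17). Mammary gland lay wholly below duodenum and overlapped with the lower end of jejunum. bta-miR-9-5p, known from neurons, had 1.07 to 28.0 CPM in mammary gland (median 4.57), 129 to 203 in duodenum and 103 to 298 in jejunum and was 4.84 ± 0.18 lower (adjusted p = 1.07e-33). The other 8 members (bta-miR-124a, bta-miR-124b, bta-miR-129, bta-miR-129-3p, bta-miR-129-5p, bta-miR-137, bta-miR-153 and bta-miR-9-3p) were listed in both intestinal tissues and not in mammary gland. bta-miR-138, another miRNA known from neurons, fell by 4.80 on the log2 scale. Its intestinal values were 69.6 to 218 CPM, and in mammary gland it had 0 to 7.82 CPM (median 3.85), where 3 reads were worth up to 3.20 CPM in the shallowest library. bta-miR-490, known from smooth muscle, was 5.17 lower at a lower level, with at most 5.12 CPM in mammary gland and at least 20.5 in the intestine. bta-miR-132, induced in active neurons, was 2.89 lower (3.73 to 34.0 CPM against 67.0 to 255), and its partner bta-miR-212 was listed only in the intestine.

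Neighbours bta-miR-130b and bta-miR-301b, which share a seed, fell together. bta-miR-130b had 2.13 to 21.8 CPM in mammary gland (median 12.9), 228 to 440 in duodenum (median 335) and 75.7 to 353 in jejunum (median 244), and was 4.57 ± 0.20 lower (adjusted p = 3.69e-30). bta-miR-301b had at most 3.65 CPM in mammary gland and 9.97 to 63.5 in the intestine, and was 4.29 lower. For neither did the groups overlap. The miR-378 family was lower in all 3 members without overlap. Of these, bta-miR-378 is hosted by a gene that drives mitochondrial metabolism. For bta-miR-378 the range was 407 to 2590 CPM in mammary gland (median 1379), 7753 to 14531 in duodenum and 5504 to 12054 in jejunum, a difference of -2.83 ± 0.12 (adjusted p = 3.69e-30). bta-miR-378b and bta-miR-378c were 2.50 and 1.99 lower, though reads of these near-identical miRNAs could have been shared between them.

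On the lists tied to cell division, members were lower or did not pass in the main fit. Of the miR-17-92 cluster and its paralogs 8 of 14 listed members were lower, 6 did not pass and none was higher, with a median of -0.32. Of all 310 miRNAs 40.3% were lower. bta-miR-93 (159 to 818 CPM against 865 to 1403) was the one member of that list whose groups did not overlap, and it was 1.27 lower. Without the 5 libraries 7 of the list were lower and 3 were higher, and with the 3 intestinal miRNAs left out of the total 12 were lower. bta-miR-363, a neighbour of the listed bta-miR-20b, bta-miR-18b and bta-miR-106a, was counted with the immune cells instead and was 0.57 higher. In the family of bta-miR-15 and bta-miR-16 4 of 6 were lower, led by bta-miR-15b (2.26 lower) and its neighbour bta-miR-16b (1.64 lower), both without overlap. Without the 5 libraries 2 were lower and 1 was higher. bta-miR-221 and bta-miR-222, which share a seed and a transcript and are known to act on an inhibitor of the cell cycle, were 1.86 and 1.87 lower without overlap. Their sum was 83.7 to 629 CPM in mammary gland and 895 to 1757 in the intestine. bta-miR-425-5p had 30.1 to 294 CPM against 551 to 1110 and was 2.29 lower.

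**Figure D3:**
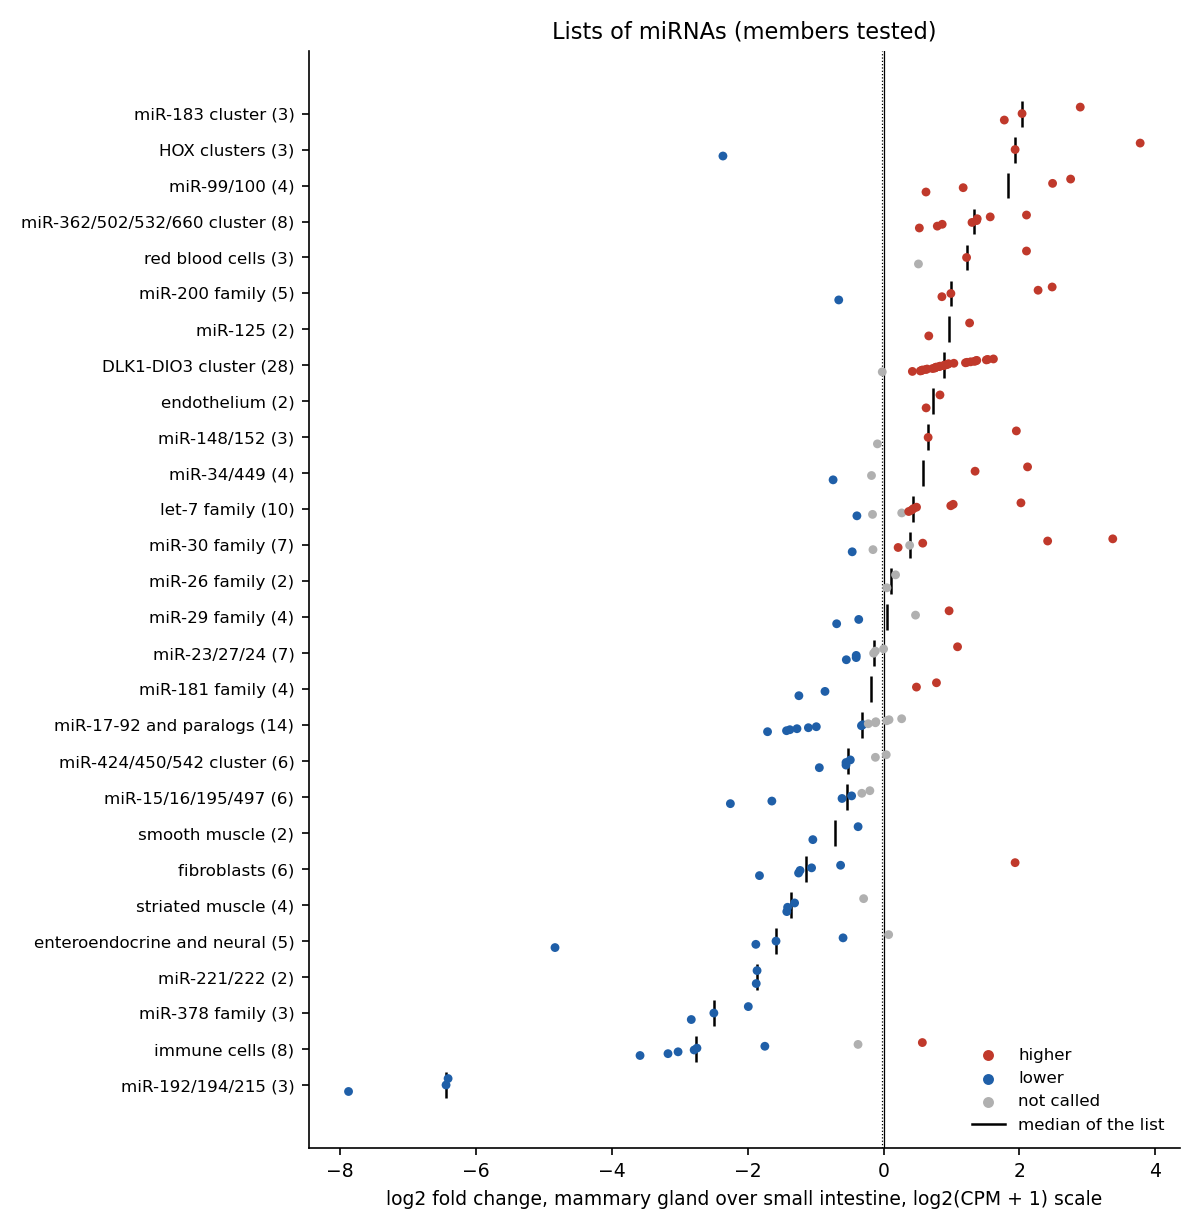
log2 difference between mammary gland and small intestine of each tested member of the lists with at least 2 tested members, coloured by the call of limma, with a bar at the median of each list and a dotted line at the median of all 310 miRNAs. The list of bta-miR-192, bta-miR-194 and bta-miR-215 and the immune cell list lie farthest to the left and the miR-183 cluster farthest to the right, and the miR-200 family and HOX clusters each hold a member on the opposite side.

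Markers of muscle and stroma were found in mammary gland and intestine, and most members of their lists were lower in mammary gland by limma. The smooth muscle pair bta-miR-143 and bta-miR-145 took 14.7% ± 4.6 of reads in mammary gland, against 16.3% ± 3.0 in duodenum and 21.3% ± 4.2 in jejunum, so that it was abundant also in the samples labelled epithelium. bta-miR-143 was 0.38 lower in mammary gland by limma (0.58 lower without the 5 libraries), but the call was lost against duodenum alone (-0.18), under upper-quartile scaling (-0.16), with edgeR (-0.13) and with DESeq2 (-0.09). bta-miR-145 was 1.04 lower. Of the fibroblast list 5 of 6 were lower (4 without the 5 libraries), for example bta-miR-199a-3p (2164 ± 1065 CPM against 4347, 1.23 lower and 0.79 lower without the 5 libraries), and the sixth was bta-miR-10b, described above with the HOX clusters. Of the striated muscle list 3 of 4 were lower. Beside these counts, 40.3% of all 310 miRNAs were lower. For bta-miR-133a the values were 22.3 to 233 CPM in mammary gland and 136 to 432 in the intestine. For bta-miR-1 the median was 4.23 CPM in mammary gland against 16.2 in duodenum and 15.3 in jejunum, a log2 difference of -1.42, although its mean of 28.3 CPM in mammary gland was above the intestinal mean of 15.4 through rice straw 3. edgeR, which models the counts, put its log2 fold change at 0.61, and the call was lost (adjusted p = 0.179). The stratified and basal epithelium list had 1 tested member, bta-miR-31, which was 0.87 higher in mammary gland. It did not pass under limma with tissue weights, against duodenum alone (0.52) or with the 3 intestinal miRNAs left out of the total. Its other listed member, bta-miR-205, is known from basal cells of the mammary gland and other glands. It was listed in mammary gland and duodenum but not in jejunum, and so was not among the 310. It had 768 to 8442 CPM in mammary gland (median 2744) and 0.099 to 5.07 CPM in duodenum (median 1.74), with no overlap. The part of basal epithelium in the other differences was not tested.

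Other families were mixed, where 39% of all 310 miRNAs were higher and 40.3% lower. In the miR-29 family 1 member was higher and 2 were lower, but without the 5 libraries 2 were higher and none lower (median 0.59 instead of 0.05). In the miR-181 family 2 were higher and 2 lower, and with the 3 intestinal miRNAs left out of the total none was higher and 2 were lower. In the clusters of miR-23, miR-27 and miR-24 1 was higher and 3 were lower of 7. There the balance turned without the 5 libraries, with 3 higher and none lower, and it was 1 higher and 6 lower with the 3 intestinal miRNAs left out of the total. In the cluster of bta-miR-424 and bta-miR-503 4 of 6 were lower, 2 without the 5 libraries and 6 with the 3 intestinal miRNAs left out of the total. In the family of miR-34 2 were higher and 1 was lower of 4. Neither member of the miR-26 family passed, while both were higher without the 5 libraries and both lower with the 3 intestinal miRNAs left out of the total. Some of the most abundant miRNAs showed no difference past the threshold. bta-miR-26a had 80339 ± 31375 CPM in mammary gland, against 73719 ± 11580 in duodenum and 68717 ± 12188 in jejunum, with a 95% interval of the log2 difference of -0.22 to 0.32. It was at -0.42 and passed when the 3 intestinal miRNAs were left out of the total, and at 0.42 and passed without the 5 libraries. Under upper-quartile scaling it was at 0.26 and passed. bta-miR-27b had 30701 ± 7297 CPM against 32544 in the intestine (interval -0.28 to 0.04) and bta-miR-22-3p 25833 ± 13089 against 18604 (interval -0.16 to 0.59). Without the 5 libraries bta-miR-22-3p was at 0.65 and passed, and with the 3 intestinal miRNAs left out of the total bta-miR-27b was at -0.59 and passed. bta-miR-22-3p also passed under upper-quartile scaling (0.43), with edgeR (0.27) and with DESeq2 (0.29), but not under TMM scaling (0.19). bta-miR-21-5p, a miRNA raised in many growing or inflamed tissues, was 0.34 lower, with 32220 ± 9285 CPM in mammary gland and 39356 in the intestine, but it did not pass without the 5 libraries (-0.15) or under upper-quartile scaling (-0.13).

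The position of the miRNA genes was read from the RefSeq table of the cattle assembly ARS-UCD2.0 for the 252 tested miRNAs with 1 precursor gene. Precursors within 10 kb of the next formed 31 groups with 104 miRNAs. In 8 of the groups 1 member was called. Of the 23 groups with 2 or more called members, 22 had their calls in 1 direction, and the exception was the group of bta-miR-200a, bta-miR-200b and bta-miR-429. Among all 310 miRNAs 121 were higher and 125 lower. Members of a group are often processed from 1 transcript and are not independent. Of the 26 precursors with both arms tested, 1 pair was called in opposite directions. bta-miR-2411-5p was 1.69 higher and bta-miR-2411-3p was 1.23 lower, both at low level (7.09 and 2.23 CPM in mammary gland, 1.36 and 7.10 CPM in the intestine).

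Against each intestinal tissue on its own the counts were alike. Mammary gland had 119 (38.4%) higher and 121 (39%) lower miRNAs against duodenum and 113 (36.5%) higher and 121 (39%) lower against jejunum. These comparisons share the mammary gland samples. In both, 108 miRNAs were higher and 114 lower, and none was called with opposite signs. bta-miR-196a was 5.10 higher than in duodenum and 2.46 higher than in jejunum, bta-miR-10b was 2.47 and 1.40 higher, and bta-miR-10a was 1.52 and 3.21 lower. For bta-miR-200b the difference was 0.46 against duodenum and 1.26 against jejunum. For bta-miR-223 it was -3.01 and -4.16, and for bta-miR-375 it was -1.92 and -1.24.

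The size of the tissue difference depended on the diet for 115 miRNAs (37.1%) by the limma F test of the interaction. In 112 of the 115 the difference was more positive in cows fed corn stover than in cows fed rice straw, but so it was in 263 of all 310 (84.8%), whose median was 0.38 in corn stover, -0.29 in rice straw and -0.06 in alfalfa hay cows. This direction depended on the scaling. Under upper-quartile scaling 76 depended on the diet, 30 of them among the 115, and in 50 of the 76 the difference was more positive in rice straw cows. Under TMM scaling it was 80, with 34 among the 115 and 49 more positive in rice straw cows. edgeR called 95, of which 32 were among the 115. In 57 of the 115 the sign was not the same in all diets. The 5 of all 310 with the smallest p were bta-miR-362-3p, bta-miR-96, bta-miR-125a, bta-miR-128 and bta-miR-628. bta-miR-362-3p differed by 0.05 in rice straw, 2.48 in corn stover and 1.58 in alfalfa hay cows. bta-miR-128, known from the nervous system, was 2.73 lower in rice straw, 0.77 lower in corn stover and 1.64 lower in alfalfa hay cows. For bta-miR-628 the values were -1.49, 0.49 and 0.01, and for bta-miR-96 they were 1.85, 4.04 and 2.80. For bta-miR-125a they were -0.29, 1.78 and 0.51, but the rice straw value was 0.22 without the 4 shallow libraries and 0.39 under upper-quartile scaling. bta-miR-362-3p, bta-miR-125a, bta-miR-128 and bta-miR-628 also passed under upper-quartile and TMM scaling, with corn stover above rice straw in each, and over a range of 0.93 to 1.61.

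**Figure D4:**
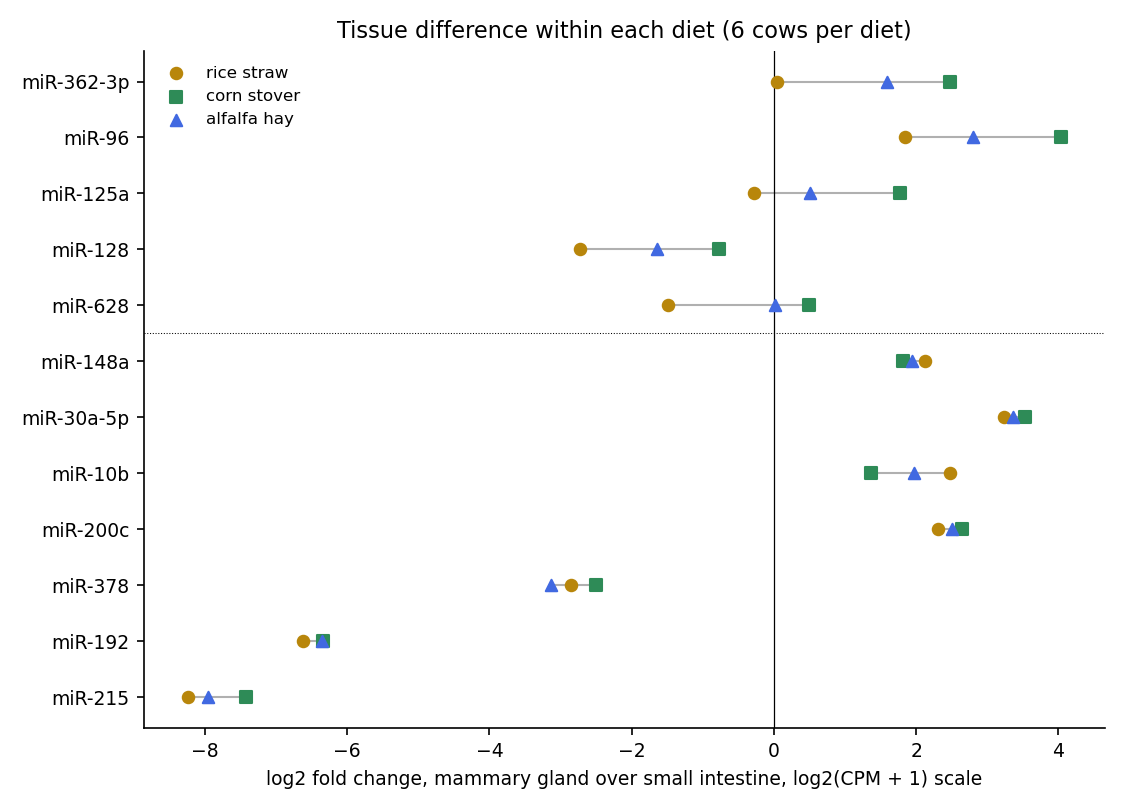
log2 difference between mammary gland and small intestine in the cows of each diet (6 samples per tissue and diet), for the 5 miRNAs with the smallest adjusted p of the interaction (above the dotted line) and for 7 abundant or strongly changed miRNAs (below it). On this CPM scale the 5 spread over about 2 log2 units with rice straw lowest and corn stover highest, while bta-miR-30a-5p, bta-miR-148a, bta-miR-200c and bta-miR-192 vary by less than 0.4, which under upper-quartile scaling was 0.72 to 1.37.

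Of the 4 shallow mammary gland libraries 3 were from rice straw and 1 from alfalfa hay cows, so low depth fell mostly on 1 diet. On the intestinal side jejunum corn stover 1, 2 and 6 stood apart. Their median correlation with the other jejunum libraries was 0.976 to 0.982, against 0.985 to 0.992 for the rest. miRNAs not listed for jejunum took 221 to 440 CPM there, against 44.9 to 72.6 in the rest. The part of these 3 libraries in the diet dependence was not tested. In jejunum bta-miR-96 had 3.10 to 5.53 CPM in corn stover cows and 6.44 to 19.8 in the other cows. The rice straw mammary gland libraries had 1527304 to 8364602 reads (median 4832714.5). The corn stover ones had 4421565 to 5755198 (median 5071609.5) and the alfalfa hay ones 937556 to 14328839 (median 8851186.5). The medians of rice straw and corn stover were thus close. Without the 4 libraries 101 miRNAs depended on the diet, of which 72 were among the 115. The range over diets of bta-miR-362-3p was then 1.97 instead of 2.43 and that of bta-miR-128 1.54 instead of 1.96, and both still passed. Under upper-quartile scaling bta-miR-96 did not pass (adjusted p = 0.0745), and under limma with tissue weights 82 depended on the diet. The part of depth in the diet dependence was not tested further. Among miRNAs with a large tissue difference, bta-miR-192 (adjusted p = 0.319), bta-miR-30a-5p (0.399), bta-miR-148a (0.532), bta-miR-200c (0.633) and bta-miR-2285t (0.0755) did not pass the limma test of diet dependence. Under upper-quartile scaling bta-miR-148a passed (2.79 in rice straw, 1.42 in corn stover and 2.28 in alfalfa hay cows, adjusted p = 0.00706), as did bta-miR-2285t (5.35, 4.57 and 4.12, adjusted p = 0.0213). In bta-miR-194 it passed (adjusted p = 0.00448), with differences of -7.00 in rice straw, -5.85 in corn stover and -6.38 in alfalfa hay cows. Without the 4 libraries bta-miR-194 did not pass (adjusted p = 0.0655) and bta-miR-30a-5p did (adjusted p = 0.0406), and under upper-quartile scaling bta-miR-194 did not pass (adjusted p = 0.624).

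**Figure D5:**
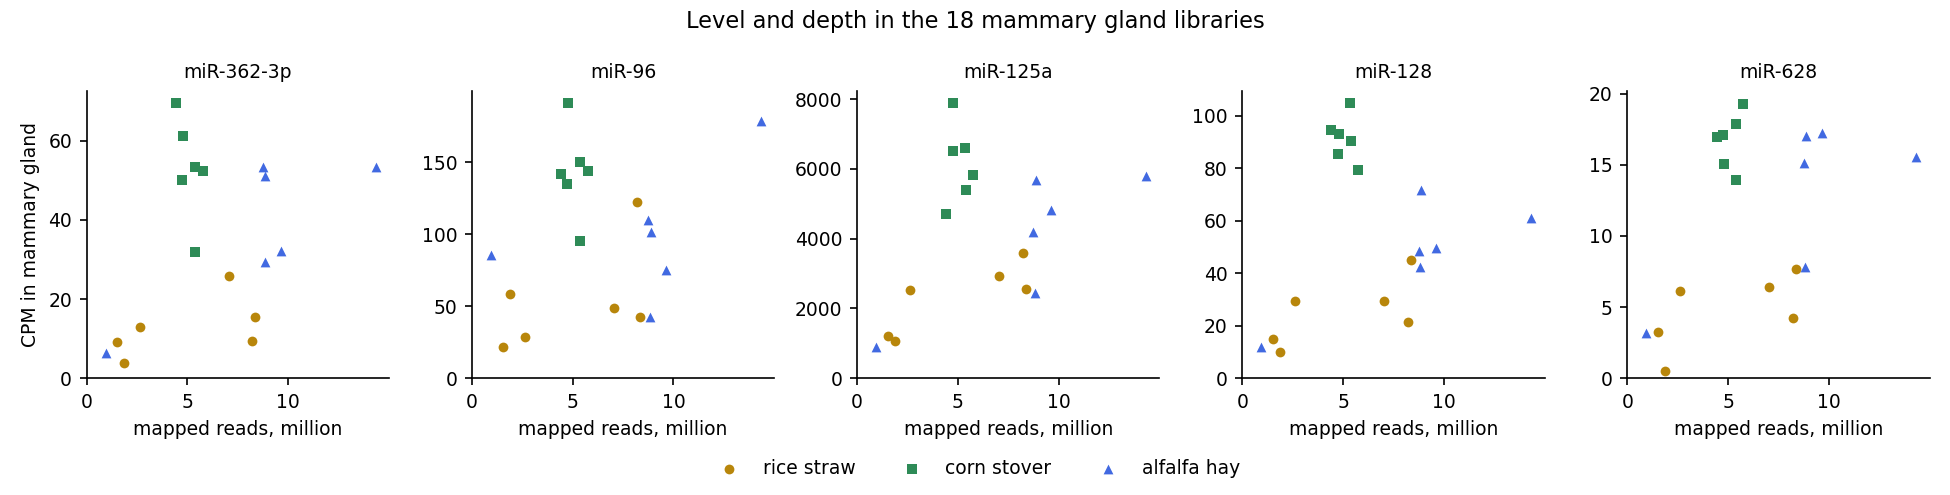
CPM of the 5 miRNAs with the smallest adjusted p of the interaction in each of the 18 mammary gland libraries (vertical axis, from 0) against the mapped reads of the library (horizontal axis), with point shape and colour by diet. The corn stover libraries lie in a narrow range of depth and are mostly high, and the rice straw libraries are low at every depth with few exceptions.

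Of the miRNAs without a value on one side, 14 were listed in mammary gland and in neither intestinal tissue, and 30 were listed in an intestinal tissue and not in mammary gland. A further 4 were listed in mammary gland and 1 intestinal tissue, namely bta-miR-205 above, bta-miR-1247-5p (2.93 ± 2.49 CPM against 1.70 ± 1.37 in duodenum), bta-miR-487a (4.77 ± 3.65 against 1.28 ± 0.64 in jejunum) and bta-miR-6531 (1.33 ± 0.93 against 1.36 ± 0.59 in jejunum). The files give no value where a miRNA was not listed, so no difference was computed. An unlisted miRNA was not necessarily absent. Unlisted miRNAs together took 221 to 440 CPM in jejunum corn stover 1, 2 and 6, and which ones they were is not given. In the other jejunum samples they took 44.9 to 72.6 CPM. In mammary gland bta-miR-196b was the most abundant, with 19.2 to 130 CPM (median 54.4) in all 18 samples, and it was listed in none of the other 4 tissues. bta-miR-2284j followed with 4.51 to 21.9 CPM (median 12.3). The other 12 had means of 0.916 to 7.88 CPM. Those named by level were bta-miR-122, bta-miR-592 (4.32 ± 2.33 CPM), bta-miR-1298, bta-miR-2284n, bta-miR-485, bta-miR-370, bta-miR-2284b and bta-miR-2316, and the rest were bta-miR-376d, bta-miR-483, bta-miR-2285s and bta-miR-134. Of these 14, bta-miR-370, bta-miR-485, bta-miR-376d and bta-miR-134 belong to the DLK1-DIO3 cluster. From the same cluster, bta-miR-323 was listed in the intestine and not in mammary gland.

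On the intestinal side bta-miR-153, a miRNA of neurons and hormone-secreting cells, was the most abundant, with 27.4 to 107 CPM in duodenum (median 58.6) and 23.8 to 46.0 in jejunum (median 31.9). It was present in all 36 intestinal samples. bta-miR-184 had 13.2 ± 5.8 and 7.15 ± 3.06 CPM. bta-miR-124a and bta-miR-124b carried identical values (12.1 ± 7.8 and 8.11 ± 7.69 CPM), as did bta-miR-129 and bta-miR-129-5p (7.10 ± 1.73 and 6.77 ± 3.01 CPM), so each of these pairs was 1 measurement. bta-miR-129-3p, bta-miR-212, bta-miR-2885 (listed in jejunum alone) and bta-miR-2284t-3p followed with means of 4.84 to 6.62 CPM, and 9 of the 30 had a mean of at least 5 CPM. The others were bta-miR-1224, bta-miR-6526, bta-miR-9-3p, bta-miR-2318, bta-miR-2376, bta-miR-2346, bta-miR-2285i, bta-miR-2285j, bta-miR-2285m, bta-miR-2403, bta-miR-137, bta-miR-383, bta-miR-216b, bta-miR-2903, bta-miR-323, bta-miR-2285r, bta-miR-2435, bta-miR-2285l, bta-miR-2320-3p and bta-miR-2284p. For the low ones the absence of a name in mammary gland says little, because 3 reads were worth up to 3.20 CPM in its shallowest library.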

How the data were processed

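Small RNA libraries of mammary gland, duodenum epithelium and jejunum epithelium (18 samples each) were used, with groups and diets from the labels. The authors aligned reads longer than 15 nt to miRBase release 22 with sRNAbench (seed of 20 nt, 2 mismatches, up to 10 mappings) after base calling with CASAVA 1.8 (named in the submitters' processing notes), and deposited CPM, the reads of each miRNA scaled to the reads mapped to all annotated miRNAs. The deposited values were used as CPM although the data descriptor calls them raw counts. Reads could therefore have been shared within near-identical sets, such as bta-miR-192 with bta-miR-215, bta-miR-10b with bta-miR-10a, bta-miR-16b with bta-miR-16a, and the families of bta-miR-378, bta-miR-199 and bta-miR-2285, whose single members are less certain. Each tissue's files list a set of miRNAs (328 in mammary gland, 338 in duodenum, 337 in jejunum), and others have no value there.

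The totals of mapped reads were recovered from the CPM steps, taking the smallest step as 1 read. All values of the 3 tissues came out whole within 0.1 of a read (100%). Reads so recovered were used only for edgeR 4.0.16 and DESeq2 1.42.0, which called 256 and 258 miRNAs. No pair of samples was identical. Counting error alone limits levels near 3 reads.

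A miRNA was tested when listed in all 3 tissues and above 1 CPM in more than 50% of samples of at least 1 of them, which all 310 were. limma 3.58.1 (R 4.3.3, lmFit, eBayes with trend) was fitted on log2(CPM + 1) with a mean per tissue, and p-values were adjusted by Benjamini-Hochberg over the 310 with a threshold of 0.05. A fold change on this scale understates the change of low miRNAs. Diet dependence was an F test of 2 interaction terms. On simulated data for this comparison, with 310 miRNAs and a log2 change of 1, the fit recovered 58 of 60 changed miRNAs and wrongly called 9 of 250. With a weight per tissue, it recovered 52 and wrongly called 1, since mammary gland samples spread more, so calls near the threshold are less certain than their p-values say. The simulated miRNAs varied independently, with no fixed total and no effect of the cow. Errors that come from CPM being shares of a whole could therefore not appear in it. Values per sample are from Python 3.11.15 and pandas 2.3.3. Alternatives were the pseudocount, filter, scaling, cow block, diets, depth and reference tissue. Those leaving out libraries or weighting tissues were added after seeing the data.

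The miRNAs named were the 12 with the largest change in each direction and the 10 most abundant on each side. The 12 needed an adjusted p below 0.05, the same sign against both intestinal tissues and a mean of at least 100 CPM on the higher side. Also named were the 10 highest of the one-sided miRNAs on each side and members of lists of families, clusters and cell type markers. The last were the 5 of all 310 with the smallest p for diet dependence, so these were picked by that test. Outside this rule bta-miR-6522, bta-miR-490, bta-miR-301b, bta-miR-342, bta-miR-425-5p and the arms of bta-miR-2411 were chosen after their values were seen. The comparison and the lists were chosen with earlier results of these data known.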

Additional observations from a re-analysis of the deposited data

Results flagged for a closer look

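The tissue difference depended on the diet for 39 of the 88 named and tested miRNAs (limma F test of the interaction, adjusted by Benjamini-Hochberg over the 310). On the CPM scale the log2 difference was highest in corn stover cows in 37 of the 39, with bta-miR-143 and bta-miR-146b the exceptions. This tally depended on the scaling, since it was 17 of the 39 under upper-quartile and 26 of the 39 under TMM scaling, and the median over all 310 was already 0.38 in corn stover against -0.29 in rice straw cows. Of the 39, 25 also passed without the 4 shallow mammary gland libraries, 25 with tissue weights, 14 under TMM scaling and 12 under upper-quartile scaling. Since 3 of the 4 shallow libraries came from rice straw cows, low depth fell mostly on that diet, though the median depths of rice straw and corn stover were close. Jejunum corn stover 1, 2 and 6 also stood apart, as given above. Sizes below are the range of the log2 difference over the diets, the highest minus the lowest.

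Among epithelial miRNAs the range was 1.09 for bta-miR-141, 1.49 for bta-miR-200b, 1.9 for bta-miR-429, 2.19 for bta-miR-96 and 2.21 for bta-miR-31. For the gut miRNA bta-miR-194 it was 1.15. In the miR-30 family it was 0.752 for bta-miR-30d, 1.31 for bta-miR-30e-5p and 1.82 for bta-miR-30f. For miRNAs that lie beside let-7 genes or are related to these it was 1.17 for bta-miR-100, 2.06 for bta-miR-125a and 1.54 for bta-miR-125b. In the cluster of bta-miR-362-3p it was 2.43 for that miRNA, 1.4 for bta-miR-502a, 0.993 for bta-miR-188 and 1 for bta-miR-500.

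Of the immune and blood miRNAs, bta-miR-142-5p had a range of 1.76, bta-miR-150 of 1.29, bta-miR-342 of 0.944, bta-miR-146b of 1.42, bta-miR-144 of 1.64 and bta-miR-363 of 1. The endothelial bta-miR-126-3p had 1.98, with a log2 difference of -0.33 in rice straw, 0.56 in alfalfa hay and 1.65 in corn stover cows. Without the 4 shallow libraries its rice straw value was 0.22, and under upper-quartile scaling it was 0.34 with a range of 0.92. In muscle and stroma the range was 1.73 for bta-miR-133a, 0.779 for bta-miR-143, 1.36 for bta-miR-145 and 1.54 for bta-miR-199a-3p. In the families of miR-15 and miR-17 and for bta-miR-425-5p it was 1.16 for bta-miR-15b, 1.69 for bta-miR-16b, 0.866 for bta-miR-93 and 1.44 for bta-miR-425-5p. The others were bta-miR-128 with 1.96, bta-miR-138 with 1.15, bta-miR-21-5p with 0.767, bta-miR-22-3p with 1.59, bta-miR-26a with 1.06, bta-miR-27b with 0.83, bta-miR-34c with 2.29 and bta-miR-628 with 1.99.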

How the results depend on the processing

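Over 88 named miRNAs and 21 alternatives, 1743 of 1843 log2 differences stayed on their side of the threshold, 50 lost the call, 36 gained one and 14 turned. A value counted as turned when its sign changed and the main fit or the alternative made a call. Changes of sign without a call in either were counted among the 1743, such as bta-miR-22-3p (0.22 in the main fit, -0.51 in rice straw cows only). The turned values were the log2 fold change of bta-let-7f (-0.10), bta-miR-26a (-0.42) and bta-miR-30d (-0.26) with the 3 intestinal miRNAs left out of the total, and of bta-miR-1 with edgeR (0.61, adjusted p = 0.179 by Benjamini-Hochberg). In rice straw cows only, bta-miR-125a was at -0.29, bta-miR-126-3p at -0.33, bta-miR-143 at 0.0094, bta-miR-30d at -0.17 and bta-miR-31 at -0.13. In corn stover cows only, bta-miR-21-5p was at 0.10, bta-miR-27b at 0.28, bta-miR-30e-5p at 0.17, bta-miR-429 at 0.16 and bta-miR-628 at 0.49. Rice straw cows only had 56 higher miRNAs instead of 121, and upper-quartile scaling left 76 that depended on the diet instead of 115, and the cause was not tested. By construction, a mean of at least 5 CPM left fewer, 3 one-sided miRNAs in mammary gland and 9 in the intestine. Without the 4 shallow libraries 150 were higher and 104 lower, and in corn stover cows 157 and 90. Under the replicate block by cow 121 were higher and 123 lower, and 119 depended on the diet, while bta-miR-144 gained the call and bta-miR-30d lost it. The sample numbers are not stated to mark the cow. Same-numbered samples correlated above 0.1 in 13 of 18 cows between duodenum and jejunum. Between mammary gland and duodenum or jejunum they did so in 6 and 8 of 18. Of the 6 samples of a diet, the same-numbered one was the closest match in 12 of 18 cows between duodenum and jejunum. For mammary gland it was 3 of 18 with duodenum and 6 of 18 with jejunum. The pairing was thus borne out between the intestinal tissues, but not clearly for mammary gland. Depth limits the low miRNAs of mammary gland, where 45 of the 310 were at 0 in at least 1 sample.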
